A study of Mus musculus with 30 samples.

Results

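The day 2 peak genes are 100 of 54532 genes counted in mouse erythroleukemia (MEL) cells, chosen because their mean level in WT cells was higher at day 2 of differentiation than at day 0 and at day 5. MEL cells are a virus-transformed erythroid precursor line that begins to make hemoglobin when dimethyl sulfoxide (DMSO) is added to the medium. The 8825 genes with a WT day 2 mean of at least 10 CPM (a gene's counts per 1000000 counts of its library) were ranked by the log2 ratio of the day 2 mean to the higher of the day 0 and day 5 means, with 1 CPM added to each, and the first 100 were taken. The 30 libraries fall into 6 groups of 5: WT MEL cells and Abcb10-null MEL cells, the latter a single CRISPR/Cas9 clone (clone 12, labelled Abcb10 knockout), each at day 0 without DMSO and at days 2 and 5 in 1.5% DMSO. Abcb10 is a transporter of the inner mitochondrial membrane that erythroid cells need for normal hemoglobin synthesis. Every day 0 library is from untreated cells and every day 2 and day 5 library from DMSO-treated cells, so time and DMSO cannot be told apart. As the choice used the WT libraries, WT levels are described here without a test, and tests are given only for the Abcb10-null libraries, which the choice did not use.

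Terminal erythroid differentiation runs from dividing precursors, which still copy their DNA and package it with new histones, to cells that leave the cell cycle, condense their chromatin and fill with hemoglobin. A midway peak here means the highest share of library counts at the middle day sampled. Whether the cells were then passing from the dividing to the maturing state was not tested. Grouped by known role, 26 of the 100 genes act in chromatin and transcription, 15 in the cytoskeleton, centrosome and cell polarity, 15 at the cell surface and in signalling, 12 in RNA processing, translation and its control by mTORC1, 9 are metabolic or other enzymes, 4 are histone genes, 4 act in nuclear import, trafficking and ubiquitination, 3 in DNA repair and the damage response, 6 are non-coding genes or a pseudogene, and 6 were given no role. No globin gene and no enzyme of heme synthesis is among them. The roles were assigned with the gene names in view.

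Library totals ranged from 9906783 to 20157768 counts. The erythroid transcription factor genes Gata1 and Klf1 were read in each library (Gata1 from 149 to 395 CPM, Klf1 from 125 to 489 CPM). The summed level of 10 mast cell markers was 272 to 340 CPM at WT day 0, 65.1 to 135 CPM at WT day 2, 564 to 643 CPM at Abcb10-null day 0 and 90.6 to 156 CPM at Abcb10-null day 2, and that of 18 macrophage and granulocyte markers was at most 59.3 CPM in each group, with S100a8 and S100a9 at 0 in both day 2 Abcb10-null and day 2 WT libraries. A list of 16 megakaryocyte and platelet markers summed higher. In WT it held 842 to 943 CPM at day 0, 500 to 701 CPM at day 2 and 2026 to 2540 CPM at day 5. In Abcb10-null cells it held 1130 to 1263, 583 to 1188 and 1981 to 3390 CPM. Abcb10 itself had WT means of 113, 624 and 1242 CPM at days 0, 2 and 5, and stood at 72.4, 202 and 204 CPM in Abcb10-null cells. In bulk RNA, a change in the number of cells that use a gene and a change in RNA per cell cannot be told apart.

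Some libraries stood apart for these genes, and results are given below with and without them; why they stood apart was not tested. Within WT day 2, replicates 1 and 2 were the 2 highest of the 5 libraries for 91 of the 100 genes, against 36% of the other 8725 genes in the ranking. The ratio of the mean of those 2 libraries to the mean of replicates 3, 4 and 5 had a median of 2.31 over the 100 genes and 1.03 over the other genes. Over the 100 genes, the median log2 change from the mean of the day 0 libraries of both genotypes was 2.39 and 2.42 in replicates 1 and 2. In replicates 3, 4 and 5 it was 1.09, 1.32 and 1.41. The same median was 0.28, 1.10, 0.48, 0.43 and 0.36 in WT day 5 replicates 1 to 5, where replicate 2 was the highest. In Abcb10-null cells at day 2, replicate 2 was the highest of the 5 libraries for 82 of the 100 genes (33.7% of the other genes). Its median change from the same day 0 mean was 1.02, where replicates 1, 3, 4 and 5 had medians of -0.05, -0.10, -0.26 and 0.34. A set of 265 other long GC-rich transcripts had medians of 1.32, 1.41, 0.48, 0.72 and 0.73 in WT day 2 replicates 1 to 5 and of 0.42 in Abcb10-null day 2 replicate 2.

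WT day 2 replicates 1 and 2 each lay above all 10 WT libraries of days 0 and 5 for 99 of the genes, and replicates 3, 4 and 5 did so for 45, 64 and 70 genes. In 41 of the 100 genes all 5 WT day 2 libraries lay above all 10 libraries of days 0 and 5. The ranking used these same libraries, so such counts describe the choice, and no share over other genes is given beside them. At day 5 the WT mean was above the day 0 mean for 74 genes and below it for 26. When the ranking was repeated without WT day 2 replicates 1 and 2, 48 of the 100 genes were again among the first 100. They included all 4 histone genes, together with Sept4, Trio, Prrc2a, Zmiz2, Acp5, Ak8 and Slc18a2, while Tnrc18, Prr12, Espn and Foxp4, whose means over replicates 3, 4 and 5 were under 10 CPM, could not enter the ranking.

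The gene with the largest ranking value was Tnrc18 (log2 ratio 2.37), whose product is a large chromatin-associated protein with a bromo-adjacent homology domain. Its level was 1.32, 2.48, 2.40, 1.74 and 1.27 CPM in WT day 0 replicates 1 to 5, 25.7, 25.8, 5.50, 4.78 and 7.19 CPM at day 2 and 1.89, 1.71, 2.76, 2.19 and 0.789 CPM at day 5. All 5 day 2 libraries were above the other 10, and replicates 1 and 2 were far above the rest of day 2. Next were Prrc2a (2.27), which encodes a proline-rich protein that binds RNA, and Prr12 (2.05), a proline-rich protein gene of little known function. Prrc2a was read at 5.50 to 13.9 CPM at WT day 0, at 135, 132, 43.9, 51.7 and 53.1 CPM at day 2 and at 6.12 to 36.4 CPM at day 5, and each day 2 library was above all libraries of the other days. Prr12 had WT means of 0.766, 11.7 and 2.05 CPM at days 0, 2 and 5.

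Several chromatin members are histone methyltransferase genes. Kmt2d, which methylates histone H3 lysine 4 at enhancers, had a WT mean of 13.6 CPM ± 4.48 at day 0, 159 ± 99.5 at day 2 and 53.5 ± 31.5 at day 5 (SD, n = 5). Its day 2 libraries held 270.4, 265, 71.1, 90.7 and 99.3 CPM, and day 5 replicate 2, at 107 CPM, lay above 3 of them. Setd1b and Kmt2b, both of the same enzyme family, had WT means of 2.48, 27.8 and 9.10 CPM and of 6.34, 37.8 and 16.8 CPM at days 0, 2 and 5. Dot1l, the histone H3 lysine 79 methyltransferase, had means of 9.50, 49.2 and 18 CPM. The SUMO ligase-like coactivator gene Zmiz2 (3.28, 28.4 and 6.96 CPM), the forkhead repressor gene Foxp4 (1.96, 13.7 and 3.70 CPM) and the zinc finger gene Wiz (1.44, 12.2 and 3.68 CPM), whose product joins the H3 lysine 9 methyltransferases G9a and GLP, also ranked among the first 20. The SWI/SNF chromatin remodelling genes Arid1a, Smarcd1 and Bcl7a were members as well. Arid1a, the DNA-binding subunit, had means of 11.3, 58.5 and 26.1 CPM.

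Bcl11a and Zbtb7a, both repressors of fetal globin genes, were 2 further transcription factor members. Bcl11a was read at 15.2, 17, 18.4, 19.6 and 23.9 CPM at WT day 0, at 62.3, 60.9, 27, 23 and 27.2 CPM at day 2 and at 11.6, 31.0, 11, 11.3 and 8.03 CPM at day 5. Day 2 replicate 4 was below day 0 replicate 5, and day 5 replicate 2 was above 3 day 2 libraries, so neither pair of groups was fully separate. Zbtb7a had WT means of 9.20, 41.3 and 19.3 CPM. Its day 2 libraries held 78.2, 67.4, 16.4, 21.3 and 22.9 CPM, and its day 5 libraries 16.1 to 25.6 CPM. Day 2 replicates 3, 4 and 5 thus lay within the day 5 range, and without replicates 1 and 2 the gene ranked 1732.

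The genes for RNA and translation control held Khsrp, an RNA-binding decay and splicing factor (WT means 21.1, 84.1 and 29.8 CPM), and Prrc2b, a relative of Prrc2a (11.6, 84.8 and 31.5 CPM). They also held Rptor, the scaffold of mTORC1 (14.7, 41.9 and 19.5 CPM), its substrate Eif4ebp2, which restrains cap-dependent translation (8.40, 38.9 and 18.3 CPM), and Larp1, which binds mRNAs with a 5′ terminal oligopyrimidine tract (50.9, 108 and 45.8 CPM). At the cell surface, the L-type calcium channel gene Cacna1c had WT means of 4.83, 66.1 and 20.6 CPM. The laminin chain gene Lama5 (5.36, 26.4 and 8.43 CPM) and the Wnt coreceptor gene Lrp5 (6.50, 19.7 and 7.04 CPM) were lower in WT at both day 0 and day 5, and Espn, an actin-bundling protein gene, had means of 1.88, 15.6 and 4.23 CPM. Tonsl, which guards replication forks, had means of 4.90, 14.5 and 3.89 CPM.

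In a smaller set the WT day 2 libraries were ordered otherwise. Replicates 1 and 2 were not the 2 highest for Sept4, Hist2h2aa2, Hist3h2ba, Hist3h2bb-ps, Ak8, Acp5, Slc18a2, Gm13340 and CT010467.1, a list drawn up after the values were seen. Acp5, tartrate-resistant acid phosphatase, was read at 7.38, 6.74, 7.73, 8.63 and 7.09 CPM at WT day 0, at 57.5, 48.9, 66.4, 56.0 and 64.9 CPM at day 2 and at 25.2, 19.7, 24.4, 21.7 and 34.5 CPM at day 5. Its WT groups were fully separate. Sept4, a septin gene whose products form filaments and include a pro-apoptotic isoform, was read at 1.31 to 4.66 CPM at day 0, at 9.59, 9.18, 11.9, 14 and 13.1 CPM at day 2 and at 1.33 to 4.14 CPM at day 5. Slc18a2, the vesicular monoamine transporter, had WT means of 5.76, 13.5 and 5.87 CPM, and Ak8, an adenylate kinase, had means of 3.29, 18 and 6.21 CPM. In Hist2h2aa2 and Gm13340, day 2 replicate 4 alone, at 31.6 and 71.7 CPM, was far above the other 4 day 2 libraries, which held 5.20 to 7.40 and 5.98 to 11.6 CPM.

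**Figure D1:**
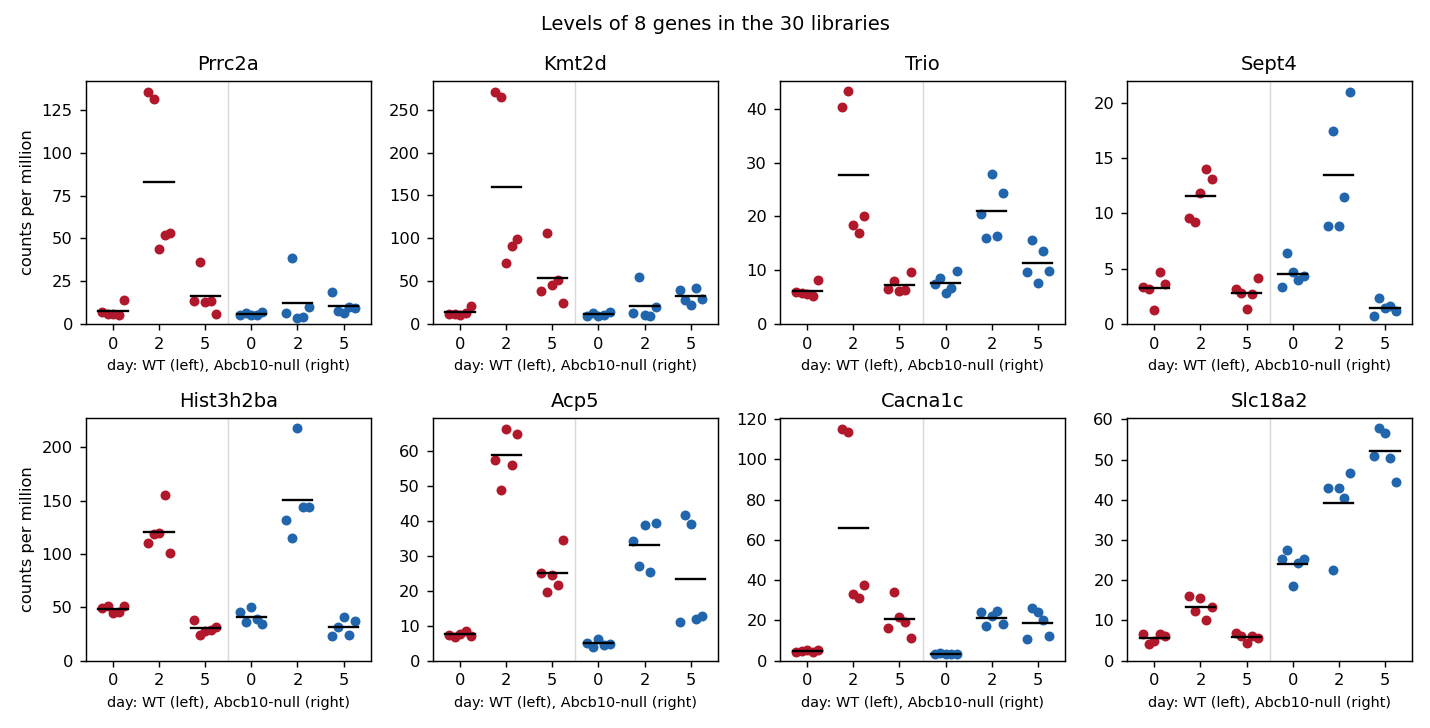
CPM of 8 genes is plotted for each library by day (points, red WT and blue Abcb10-null, in replicate order from left to right) with the mean of each group as a black bar and the axis starting at 0. Prrc2a, Kmt2d and Cacna1c are highest in WT day 2 replicates 1 and 2, while Sept4, Hist3h2ba and Acp5 are even over the WT day 2 libraries and also high at day 2 in Abcb10-null cells.

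As a group the genes had GC-rich and long transcripts, a property that the ranking did not use. The GC content of the longest transcript had a median of 57.3% (quartiles 55.4% and 59.4%) over the 100 genes and of 49.0% (44.3% and 53.8%) over 8720 other genes in the ranking. Its length had a median of 5275.5 bases over the 100 genes and 3455.5 bases over the others. In all, 83 of the 100 genes were in the top 25% of GC content (53.9% or more), 55 in the top 25% of length (4882 bases or more) and 45 in both, against 3.04% of the other genes in both. Runs of 5 or more G or C bases made up a median of 11.5% of the transcript in the 100 genes and 6.14% in the others. Subtracting each library's trend with GC content and length before the ranking left 49 of the 100 genes among the first 100. These libraries and these sequence properties moved together, and which of them the levels follow was not tested.

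Several members have a relative in the genome that is not a member, and in 17 of 20 such pairs, picked after the values were seen, the member had the more GC-rich transcript. The other way round were Zbtb7a (57.4%) with Zbtb7b (59.9%), Bcl7a (51.5%) with Bcl7b (56.7%) and Bcl11a (44.8%) with Bcl11b (50.1%). The pairs are not independent, as some members, such as Arid1a, were paired with more than 1 relative. Bcl11b, with a WT day 2 mean of 0.101 CPM, could not enter the ranking. Some relatives had uneven WT day 5 libraries, such as Kmt2a with 19.6 to 124 CPM, so their place outside the members may rest on single libraries. Prrc2a (60.6% GC) is a member and Prrc2c (47.0%) is not, and Kmt2d (58.4%) is and Kmt2c (47.6%) is not. The WT means at days 0, 2 and 5 were 71.9, 197 and 145 CPM for Prrc2c and 55.0, 218 and 268 CPM for Kmt2c. Kmt2c was thus highest at day 5 in the mean only. Its day 5 libraries ran from 111 to 635 CPM (SD 213) and its day 2 libraries from 118 to 331 CPM. Those of Prrc2c at day 5 ran from 70.4 to 319 CPM. Whether either gene would rank otherwise without its highest day 5 library was not tested. The lines below give 90 bases from the middle of the longest coding exon of each gene, on the strand of the gene in GRCm38 (GENCODE M21), to show the difference in composition; capitals mark runs of at least 5 G or C bases.
Tnrc18, chr5:142787784-142787873, minus strand: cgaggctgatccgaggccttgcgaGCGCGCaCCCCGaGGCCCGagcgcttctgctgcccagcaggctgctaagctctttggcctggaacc
Prrc2a, chr17:35156242-35156331, minus strand: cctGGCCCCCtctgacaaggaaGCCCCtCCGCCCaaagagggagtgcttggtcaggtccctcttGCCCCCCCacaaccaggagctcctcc
Prrc2c, chr1:162705450-162705539, minus strand: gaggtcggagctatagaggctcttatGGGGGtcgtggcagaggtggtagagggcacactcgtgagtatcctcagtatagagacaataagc
Kmt2d, chr15:98845026-98845115, minus strand: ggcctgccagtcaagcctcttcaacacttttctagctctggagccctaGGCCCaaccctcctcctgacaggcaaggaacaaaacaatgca
Kmt2c, chr5:25314883-25314972, minus strand: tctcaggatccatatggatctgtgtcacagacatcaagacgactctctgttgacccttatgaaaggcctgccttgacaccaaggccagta

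The stretches of Prrc2a and Prrc2c, which are members of 1 family, held 66.67% and 53.33% G or C, and those of Kmt2d and Kmt2c 54.44% and 48.89%. In the Tnrc18 stretch, 17 of 90 bases lay in runs of G or C, in that of Prrc2a 26, and in that of Kmt2c 0. These are single windows of long transcripts, and the whole-transcript values above are the measure for each gene. Not every member was GC-rich: Bcl11a had 44.8% and Slc18a2 47.2%, and Cacna1c, with 13162 bases, had 50.3%.

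**Figure D2:**
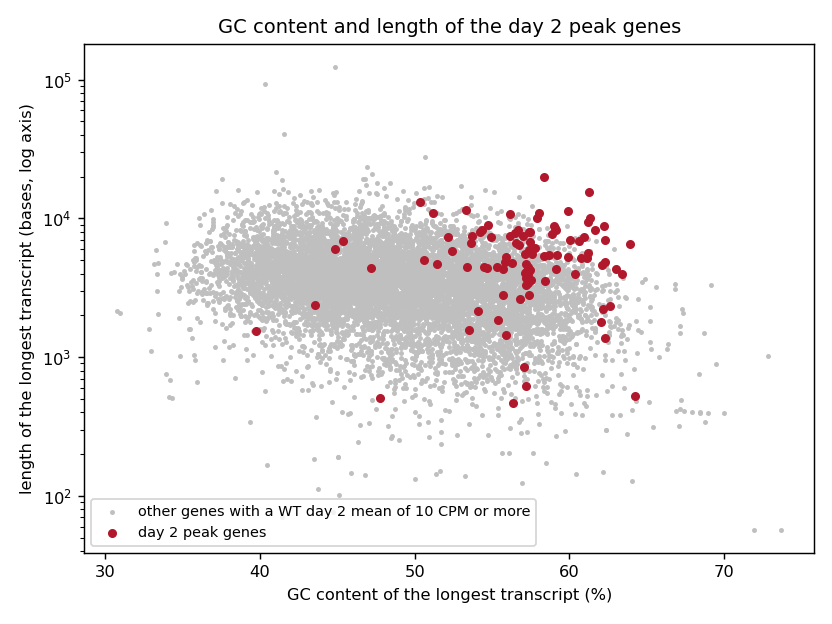
The GC content of each gene's longest transcript (horizontal axis) is plotted against its length in bases (vertical log axis) for the 100 day 2 peak genes (red) and the other genes with a WT day 2 mean of at least 10 CPM (grey). Most red points lie at the upper right, where 45 of the 100 genes are in the top 25% of both measures.

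In the Abcb10-null libraries, 33 of the 99 genes tested rose from day 0 to day 2 and 0 fell (edgeR quasi-likelihood test, Benjamini-Hochberg adjusted p under 0.05 over 12940 genes). Gm38082, an unclassified transcript inside Cux1, did not pass the filter on low counts. Of all genes tested, 23.1% were called higher and 20.1% lower. The median log2 fold change was 0.41 over the 99 genes and 0.03 over all genes tested, and 37 of the 99 genes had an unadjusted p under 0.05 in either direction. DESeq2 called 34 genes higher and 0 lower, where 3113 and 2893 of all 19438 genes it tested were called. Without Abcb10-null day 2 replicate 2, 29 genes rose and 11 fell, with a median of 0.11, where 26.04% of all genes tested in that fit were called higher and 22.44% lower. All of those 29 were among the 33, and none of the 11 had been called with all libraries.

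The largest rise in Abcb10-null cells was that of Acp5, from 5.09, 3.87, 6.34, 4.5 and 4.86 CPM at day 0 to 34.2, 27.1, 38.7, 25.4 and 39.5 CPM at day 2 (log2 fold change 2.73, SE 0.18, edgeR adjusted p = 2.26e-07). No day 2 library came near a day 0 library. Cacna1c rose from 3.12 to 3.87 CPM at day 0 to 24.2, 17.4, 22, 24.4 and 18.2 CPM at day 2 (log2 fold change 2.61, SE 0.17, adjusted p = 1.87e-07), and here replicate 2 was the lowest library. Cpne7, a calcium-dependent phospholipid-binding copine gene, rose by 2.45 (SE 0.17) and Ak8 by 1.87 (SE 0.27) on the log2 scale. In Ak8, replicate 2 at 5.38 CPM was again the lowest, the others holding 11.2 to 15 CPM. Trio, a guanine nucleotide exchange factor for Rac1 and RhoA, rose from 7.37, 8.58, 5.75, 6.75 and 9.82 CPM to 20.4, 15.9, 27.9, 16.4 and 24.3 CPM (log2 fold change 1.45, SE 0.19, adjusted p = 6.92e-05), with no overlap of the groups. Other genes that rose were Ptpru, a receptor tyrosine phosphatase gene (1.68), C77080, given no role here (1.55), Sept4 (1.55), the centrosome and cilium genes Crocc (1.27) and Cep164 (0.80), the DNA damage adaptor gene Pidd1 (1.03), the ataxin relative Atxn2l (1.00) and the cytidine deaminase gene Cda (0.88).

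By role, all 4 histone genes and 6 of the 9 enzymes rose, and 3 of the 26 chromatin and transcription genes did (Phf2, Zfp385a and Bcl7a; median log2 fold change 0.36). None of these 3 was called without Abcb10-null day 2 replicate 2, which left 0 of the 26. Of the RNA and translation genes 4 of 12 rose, of the cytoskeletal genes 5 of 15 and of the cell surface genes 4 of 15. Beside these counts by role, 23.1% of all genes tested were called higher. Of the first 20 genes of the WT ranking, Trio, Cacna1c, Sept4, Hist2h2aa2 and Prrc2b were called. The log2 fold change was 1.05 (SE 0.52, adjusted p = 0.120) for Prrc2a and 0.88 (SE 0.39, adjusted p = 0.0861) for Kmt2d by the same edgeR test. Prrc2a stood at 38.4 CPM in replicate 2 and at 3.55 to 9.81 CPM in the other 4 day 2 libraries, against 4.99 to 6.81 CPM at day 0. Kmt2d stood at 55.0 CPM in replicate 2 and at 9.42 to 19.5 CPM in the others, against 9.09 to 14.3 CPM at day 0. Tnrc18 was at 0.751 to 2.20 CPM at day 2 and 0.451 to 1.52 CPM at day 0, so the groups overlapped.

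The lowest fold changes belonged to genes whose values were split in the same way. Fasn, fatty acid synthase, was read at 106 to 136 CPM at Abcb10-null day 0 and at 41.8, 193, 84.8, 47.8 and 49.0 CPM at day 2 (log2 fold change -0.55, SE 0.32, adjusted p = 0.188). Sema4d, a semaphorin gene, had a fold change of -0.77 (SE 0.39), Plekha6 of -0.64 (SE 0.32), Sipa1l3 of -0.61 (SE 0.30) and Pml, which builds nuclear bodies, of -0.54 (SE 0.37), and none of these passed the test. Without replicate 2 the edgeR log2 fold changes were -1.05 for Fasn, -1.38 for Sema4d, -0.96 for Plekha6, -1.04 for Sipa1l3 and -0.95 for Pml, and all 5 passed. In WT, Fasn had stood at 534, 543, 144, 167 and 166 CPM in day 2 replicates 1 to 5, against 108 to 159 CPM at day 0.

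From day 2 to day 5 in Abcb10-null cells, 15 of the 100 genes fell and 9 rose. Of the 12797 genes tested, 16.6% were called lower and 14.4% higher, and the median log2 fold change was 0.05 over the 100 genes and 0.01 over all. This comparison shares the 5 day 2 libraries with the one above. Without Abcb10-null day 2 replicate 2, 15 genes fell and 26 rose, with a median of 0.32, where 18.11% of all genes tested were called lower and 16.38% higher. Of these, 14 and 9 were called with all libraries. The 17 genes added to those that rose included the H3 lysine 4 methyltransferases Kmt2d and Kmt2b and the lysine 79 methyltransferase Dot1l.

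The steepest fall was that of Sept4, from 8.82, 17.5, 8.90, 11.4 and 21 CPM at day 2 to 0.728, 2.39, 1.49, 1.62 and 1.15 CPM at day 5 (log2 fold change -3.12, SE 0.33, edgeR adjusted p = 3.65e-05). Its day 5 level was also below each Abcb10-null day 0 library (3.32 to 6.4 CPM). Bcl11a, which had not changed by the test from day 0 to day 2 (log2 fold change 0.23, SE 0.13, adjusted p = 0.171), fell from 23.1, 33.9, 26.7, 22.2 and 22 CPM to 9.04, 7.95, 6.13, 14 and 9.74 CPM (log2 fold change -1.39, SE 0.21, adjusted p = 0.000311). Cep250, a centriole linker gene, fell by 1.37 (SE 0.28), and Cep164, Fanca of the Fanconi anemia core complex, Tiam1, a Rac1 exchange factor, and Trio also fell, by 0.96, 0.94, 0.70 and 0.84. Cpne7 fell by 1.02 (SE 0.26). Its day 5 libraries were uneven, with 27.8 CPM in replicates 2 and 3 and 11 to 14.3 CPM in the others. Acp5 had the same split at day 5, with 41.8 and 39.0 CPM in replicates 2 and 3 and 11.2 to 12.9 CPM in the others, and was not called (log2 fold change -0.45, SE 0.35, adjusted p = 0.363). Cacna1c stood at 11, 26.1, 24.2, 20.1 and 12.1 CPM at day 5 and was not called either (log2 fold change -0.14, SE 0.24).

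Genes that rose from day 2 to day 5 in Abcb10-null cells included Setd1b, from 1.99, 5.38, 1.85, 2.54 and 3.54 CPM to 8.62, 4.42, 4.42, 6.26 and 7.02 CPM (log2 fold change 1.09, SE 0.31, adjusted p = 0.0160). The groups overlapped through day 2 replicate 2. Rai1, a nucleosome-binding transcriptional regulator gene, rose by 1.14 (SE 0.23), C77080 by 1.14 (SE 0.29), the translational repressor gene Gigyf1 by 0.92 (SE 0.22) and Atxn2l by 0.73 (SE 0.13). Prr12 had a log2 fold change of 1.3 (SE 0.54, adjusted p = 0.0833) and passed only without day 2 replicate 2 among the alternatives tried. In these genes day 5 was the highest of the 3 days in the Abcb10-null means, where WT had its highest mean at day 2.

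**Figure D3:**
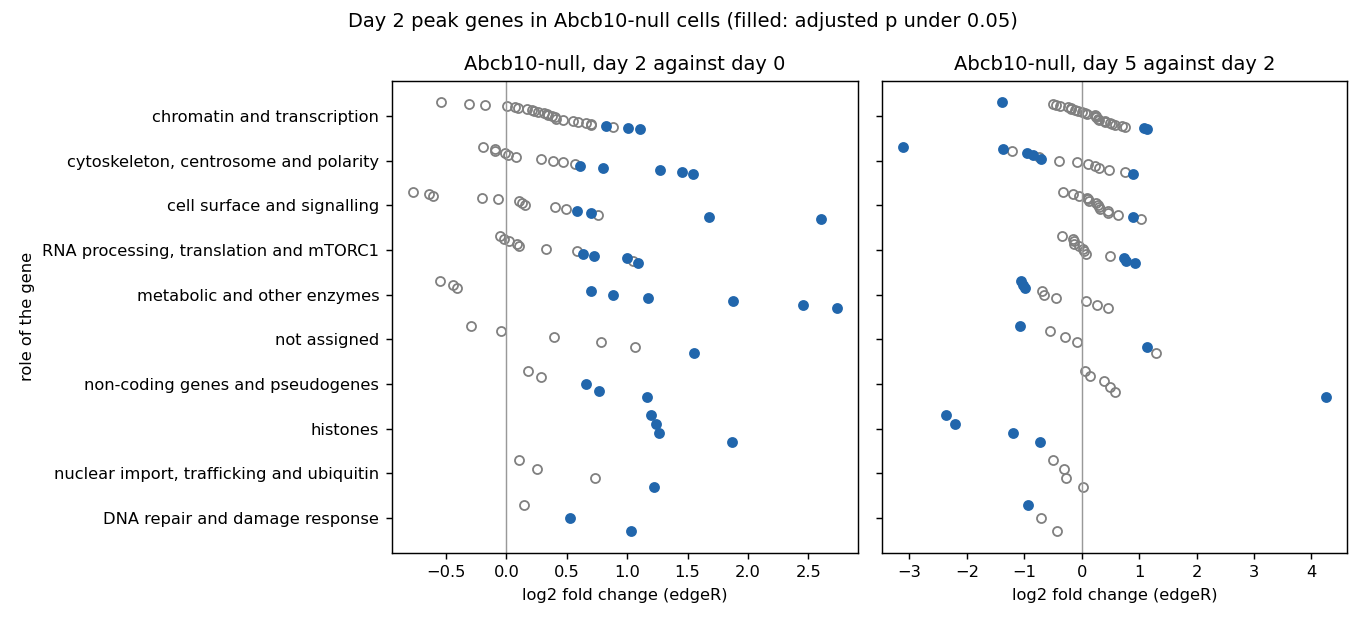
The edgeR log2 fold change of each day 2 peak gene in Abcb10-null cells is plotted by role for day 2 against day 0 (left) and day 5 against day 2 (right), with filled points for adjusted p under 0.05 and open points for the rest. On the left 33 filled points lie above 0 and none below it, with all 4 histone genes among them, and on the right the 4 histone genes are all below 0.

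In all, 3 of the 100 genes had every Abcb10-null day 2 library above every Abcb10-null day 0 and day 5 library (0.992% of the 13507 genes tested), namely Sept4, Hist3h2ba and Hist3h2bb-ps. Scaled to library totals in place of TMM, 6 genes did. Without day 2 replicate 1 or without day 2 replicate 2 the count was 7, and without day 5 replicate 2 it was 5. The share over all genes is not given for these alternatives, so the larger counts have no comparison. Hist3h2ba, a replication-dependent H2B gene, was read at 45.9, 36.4, 49.9, 39.1 and 34.1 CPM at day 0, at 132, 115, 218, 144 and 144 CPM at day 2 and at 23.1, 31.4, 40.9, 24 and 37.2 CPM at day 5. It rose by 1.87 (SE 0.18, edgeR adjusted p = 5.17e-06) and then fell by 2.21 (SE 0.21, adjusted p = 2.15e-05) on the log2 scale. The neighbouring pseudogene Hist3h2bb-ps rose by 1.24 (SE 0.23) and fell by 2.37 (SE 0.22). In WT, Hist3h2ba held 44.8 to 51.6 CPM at day 0, 101 to 155 CPM at day 2 and 24.4 to 38.5 CPM at day 5.

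Of the other 2 histone genes, Hist2h2aa2, an H2A gene, had Abcb10-null means of 3.87, 8.85 and 3.73 CPM at days 0, 2 and 5, with groups that lay apart in CPM by a narrow margin (day 2 from 5.43 CPM, day 0 up to 5.35 CPM) but not after TMM scaling (log2 fold changes 1.20, SE 0.28, and -1.19, SE 0.30), and all of its exon bases lie opposite Gm20632, on the other strand. H2afx, the H2A variant that is phosphorylated at DNA breaks, was read at 446, 433, 431, 423 and 370.0 CPM at Abcb10-null day 0, at 1056, 814, 1295, 1162 and 710.3 CPM at day 2 and at 502, 609, 649, 466 and 719.9 CPM at day 5. Day 5 replicate 5 was above day 2 replicate 5, and the fold changes were 1.26 (SE 0.17) and -0.73 (SE 0.20). All 4 genes passed both tests under each alternative tried. The list of 70 replication-dependent histone genes holds 3 of the 4, H2afx not being on it. Of these, 53 of 66 tested were higher at day 2 than day 0 in Abcb10-null cells and 0 lower (median log2 fold change 1.32), and 43 of 65 were lower at day 5 than day 2 and 0 higher (median -1.09), beside 23.1% of all genes tested higher and then 16.6% lower. Without Abcb10-null day 2 replicate 2, 56 were higher and 1 lower, then 50 lower. The summed level of the 70 genes was 12230 to 18796 CPM at Abcb10-null day 0, 25137 to 51561 CPM at day 2 and 17805 to 30280 CPM at day 5, and in WT 20436 to 22865, 20774 to 28399 and 10100 to 17722 CPM.

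Replication-dependent histone mRNAs end in a stem-loop in place of a poly(A) tail, and the libraries were made from total RNA without selection for poly(A). A script searched the longest transcript of each gene for the 16-base pattern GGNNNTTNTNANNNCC, with the first 6 bases complementary to the last 6, and found it in 3 of the 100 genes and in 0.556% of 8820 genes in the ranking. The sites are shown because they mark the mRNAs of this class, with the 16 bases in capitals (GRCm38, GENCODE M21).
Hist3h2ba, chr11:58949345-58949368, plus strand: caaaGGCTCTTTTCAGAGCCacct
Hist2h2aa2, chr3:96239780-96239803, minus strand: aaaaGGCTCTTTTCAGAGCCaccc
H2afx, chr9:44335236-44335259, plus strand: caaaGGCCCTTTTAAGGGCCacca

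The 150 bases before the start of Hist3h2ba (RefSeq H2bu2, GRCm38.p6, chr11:58948761-58948910, plus strand) are given as the promoter of a member whose day 2 libraries lay apart from days 0 and 5 in both genotypes. The letters CCAAT and TATAAA, searched on both strands, are in capitals.
Hist3h2ba promoter: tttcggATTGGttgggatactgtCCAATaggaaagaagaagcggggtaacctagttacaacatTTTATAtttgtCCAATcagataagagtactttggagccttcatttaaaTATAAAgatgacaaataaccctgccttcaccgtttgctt
Within 250 bases before the start, CCAAT or its complement was found at -159 (outside the stretch shown), -144, -127 and -76 and TATAAA or its complement at -87 and -39. The letters ATTTGCAT were also searched for in these bases and were not found. In the same 250 bases, 33.8% of 32851 promoters held CCAAT and 12.4% held TATAAA on either strand, and 526 of the promoters held ATTTGCAT. A match describes the letters and not a bound site.

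Set beside WT at day 2, the Abcb10-null mean was lower for 96 of the 100 genes and higher for 4. This comparison is described without a test, as the genes were chosen for a high WT day 2 mean. The ratio of the Abcb10-null to the WT day 2 mean had a median of 0.297 over the 100 genes and 0.980 over the other genes in the ranking, and the ratio was 0.872 at day 0 and 0.723 at day 5 over the 100 genes. Without WT day 2 replicates 1 and 2 the day 2 median was 0.470. The lowest ratios were those of Gm38082 (0.0433), Prr12 (0.0710), Tnrc18 (0.0849), Inf2, a formin gene (0.109), and Setd1b (0.110). The highest were those of Slc18a2 (2.91), Hist3h2ba (1.24), Sept4 (1.17), H2afx (1.09) and Hist2h2aa2 (0.787).

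Slc18a2 differed from the others in level before DMSO. It was read at 25.2, 27.5, 18.7, 24.2 and 25.2 CPM in Abcb10-null day 0 libraries, where WT day 0 held 4.26 to 6.75 CPM. At Abcb10-null day 2 it was 42.9, 22.7, 42.9, 40.6 and 46.6 CPM (log2 fold change 0.70, SE 0.19, adjusted p = 0.00892) and at day 5 44.4 to 57.8 CPM (log2 fold change 0.46, SE 0.18, adjusted p = 0.0721). Every Abcb10-null library was above every WT library of this gene, and while the WT mean went from 13.5 to 5.87 CPM between days 2 and 5, the Abcb10-null mean went from 39.1 to 52 CPM.

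Bcl11a is 1 of 18 erythroid transcription factor genes, of which 9 were higher and 3 lower from day 0 to day 2 in Abcb10-null cells (median log2 fold change 0.34), where 23.1% of all genes tested were higher and 20.1% lower. From day 2 to day 5, 4 were higher and 5 lower (median 0.18), against 14.4% and 16.6% of all genes tested.

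The non-coding members were varied. CT010467.1, annotated as ribosomal RNA at chr17:39846353-39848827 of GRCm38, was among the first 20 of the ranking, although the libraries had been depleted of ribosomal RNA. It was read at 2009, 141, 989, 92.3 and 3148 CPM in WT day 2 replicates 1 to 5, so that replicates 2 and 4 lay within the WT day 0 range of 59.2 to 242 CPM. In Abcb10-null day 5 replicate 2 it took 1.77% of all counts (17731 CPM), against 166 to 802 CPM in the other 4 libraries, and its called rise from day 2 to day 5 (log2 fold change 4.26, SE 1.20, adjusted p = 0.0157) was 0.89 and not called without that library (adjusted p = 0.176). The part that depletion had in these values was not tested. Gm38082 (chr5:136529596-136536477) lies inside Cux1 on the same strand, and its WT day 2 libraries held 34.5, 28.2, 7.88, 5.38 and 5.20 CPM against 0.278 to 0.679 CPM at day 0. Gm15726 and G530011O06Rik lie inside Mid1 on the opposite strand of chromosome X, and both rose from day 0 to day 2 in Abcb10-null cells, by 0.66 and 0.77 on the log2 scale. The strand setting of the counting is not given in the sources used here, so counts of such overlapping genes are uncertain.

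At the limit of the ranking, the last 3 genes inside were Bcl7a (1.012), Zfp865 (1.009) and Inf2 (1.008), and the first 3 outside were Ints1 (1.007), the mitotic kinase gene Plk1 (1.002) and Usp10 (0.998). Inf2 had WT means of 18.4, 140.2 and 69.2 CPM at days 0, 2 and 5, and Plk1 had means of 19.1, 39.3 and 17 CPM. Inf2 and Ints1, on either side of the limit, thus differed by less than 0.01 in the value that chose the members.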

How the data were processed

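Total RNA from MEL cells was depleted of ribosomal and globin RNA and made into stranded total RNA libraries. Per the labels and the study's methods, the authors aligned reads to GRCm38 with STAR 2.6.1b and counted them per Ensembl gene (featureCounts 1.6.3). The deposited values are raw read counts per gene, neither normalized nor filtered, and all 30 libraries were used. Replicates carry the numbers of their labels, which call them biological; whether each was a separate culture is not stated, so p-values measure the spread between these libraries, and the closest replicates differed by 6.23 times counting error (chi-square per degree of freedom).

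The members and lists were chosen with earlier results of these data known. CPM used column sums. The Abcb10-null libraries were tested with edgeR 4.0.16 in R 4.3.3 (TMM, filterByExpr, glmQLFit, glmQLFTest, Benjamini-Hochberg adjusted p under 0.05), using only the 10 libraries compared. The test was checked on simulated counts. Alternatives were DESeq2 1.42.0, other scalings and filters, all 30 libraries in one fit, a replicate block and leaving out each library. An offset for GC content and length, and leaving out WT day 2 replicates 1 and 2, were chosen after seeing the data. GC content, length and positions came from GENCODE M21 (GRCm38), in which 37 of the table's genes were not found.

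Genes named were the first 20 of the ranking, members on a list, 3 genes on each side of the limit, the 5 highest and 5 lowest fold changes in each test, the 5 highest and 5 lowest ratios of Abcb10-null to WT at day 2, and Abcb10. Other members were named for their known function, after their values were seen. The values of 2 members are not reported here by name; they stay in the counts.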

Additional observations from a re-analysis of the deposited data

Results flagged for a closer look

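Among the named genes, 234 groups of 5 libraries were screened for a library whose gap to the nearest other exceeded Dixon's critical value of 0.71 of the group's range, which chance alone gives in about 1 of 20 groups, and 33 had one. They fell mostly in 3 libraries.

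Abcb10-null day 2 replicate 2 accounted for 12. It was above the other 4 libraries for Espn (7.02 CPM, the others up to 2.5), Fasn (193 CPM, up to 84.8), Gm38082 (2.20 CPM, up to 0.561), Khsrp (49.99 CPM, up to 23.7), Kmt2d (55.0 CPM, up to 19.5), Prrc2a (38.4 CPM, up to 9.81), Prrc2b (44.5 CPM, up to 19.2), Sema4d (7.52 CPM, up to 2.73), Sipa1l3 (9.88 CPM, up to 3.81), Tnrc18 (2.20 CPM, up to 1.07) and Zfp865 (9.22 CPM, up to 6.16). It was below the others for Slc18a2 (22.7 CPM, the others 40.6 to 46.6).

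WT day 5 replicate 2 accounted for 8, all above the other 4 libraries. These were Bcl11a (31.0 CPM, the others up to 11.6), Espn (9.0 CPM, up to 4.10), Gm38082 (15.1 CPM, up to 3.58), Prrc2a (36.4 CPM, up to 13.7), Prrc2b (62.8 CPM, up to 27.3), Setd1b (17.5 CPM, up to 8.22), Zfp865 (14.9 CPM, up to 6.73) and the median log2 change over the 100 genes (1.10, up to 0.48). WT day 0 replicate 5 accounted for 6, also all above: Fasn (159 CPM, up to 122), Khsrp (32.2 CPM, up to 19.8), Kmt2d (21.5 CPM, up to 12.7), Prrc2a (13.9 CPM, up to 7.01), Trio (8.12 CPM, up to 5.90) and Zmiz2 (5.75 CPM, up to 2.75).

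The remaining 7 were single cases. CT010467.1 was at 17731 CPM in Abcb10-null day 5 replicate 2, where the others held at most 802 CPM, and Hist3h2bb-ps was at 6.76 CPM in the same library, where the others held 6.02 to 6.23 CPM. Tnrc18 was at 6.96 CPM in Abcb10-null day 5 replicate 4, with the others at most at 0.788 CPM. Hist2h2aa2 was at 31.6 CPM in WT day 2 replicate 4, with the others at most at 7.40 CPM, and Hist3h2ba at 218 CPM in Abcb10-null day 2 replicate 3, with the others at most at 144 CPM. At Abcb10-null day 0, Plekha6 was at 7.48 CPM in replicate 1 and Hist3h2bb-ps at 9.42 CPM in replicate 5, both below the rest of the group.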

How the results depend on the processing

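Of 148 counts and medians recomputed under the alternatives, 15 moved beyond the limits set (1.5 times for a count, 1 SD of the library medians for a median); for none was the cause tested. The count of genes lower at day 2 than day 0 in Abcb10-null cells was 0. It became 6 with all genes of at least 1 count, 1 with all 30 libraries in one fit and 3 with the replicate block. With the GC and length offset it became 3, and leaving out 1 library 0 to 11. Over all genes tested, 2701 of 31768, 2736 of 14702, 2398 of 12940 and 2628 of 12940 were lower in these fits, in that order. The fit that gave 11 had 22.44% lower. The count of genes higher at day 5 than day 2 was 9, and became 14 with all genes of at least 1 count and 6 to 26 leaving out 1 library. Over all genes tested, 14.4% were higher in the main fit and 2369 of 41838 with at least 1 count. The fit that gave 26 had 16.38% higher. The count with no overlap in Abcb10-null cells was 3, and became 6 with library totals and 3 to 7 leaving out 1 library. Of the 100 genes, 48 were ranked again without WT day 2 replicates 1 and 2, 49 with the GC and length offset, and 67 (without WT day 5 replicate 2) to 99 leaving out 1 library. The median ratio of Abcb10-null to WT day 2 means, 0.297, became 0.470 without WT day 2 replicates 1 and 2 and 0.533 with the offset. Of the 33 genes called higher at day 2, 24 were called under every alternative, and of the 24 called at day 5, 18. Log2 fold changes of named genes were followed where called or among the 5 highest or 5 lowest in that comparison. Among their 611 recomputed values, 0 changed sign, 23 lost a call and 18 gained one. Other named genes, such as Foxp4 with a log2 fold change of 0.003 at day 2 against day 0, were not followed. The lack of sign changes is thus partly set by that choice and does not describe genes near 0.

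Replicate numbers did not pair the libraries: same-numbered libraries had correlations from -0.229 to 0.104, with 1 of 10 over 0.1. With the replicate block, 27 genes were higher and 3 lower at day 2, where 2465 and 2398 of all 12940 genes tested were. At day 5, 6 were higher and 13 lower, where 1378 and 1529 of all 12797 genes tested were. With 9906783 to 20157768 counts a library, 1 CPM is about 10 to 20 counts, so members at that level have the least precise values.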
